A study of Mus musculus with 8 samples.

Results

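Smooth muscle cells contract through actin filament and myosin proteins that fibroblasts also make when they turn contractile. The set described here holds the actins Acta2 and Actg2, the calponin family members Tagln, Cnn1 and Cnn2, and the actin-binding protein smoothelin (Smtn). It also holds the myosin regulatory light chain Myl9, the tropomyosins Tpm1 and Tpm2 and the cell surface adhesion molecule Mcam. These 10 genes were chosen by name, with earlier results of these data known. All 10 were found among the 19938 genes measured, each on 1 probe set that was annotated to that gene alone. Many of these genes are controlled by serum response factor (Srf), which binds a short DNA element, the CArG box. Its cofactors are myocardin (Myocd), which is largely restricted to muscle, and the myocardin-related factors Mrtfa and Mrtfb, which enter the nucleus when RhoA signalling polymerises actin.

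The cells were mouse embryonic fibroblasts of FVB/N background, profiled on 8 expression arrays. All cells, the controls included, carried the knockout of Daxx, a histone chaperone and transcriptional regulator, and the study sought its downstream target genes. Daxx had been put back in 4 samples, 2 of them titled DaxxA and 2 titled DaxxB, and 4 samples had received a vector. What A and B stand for, and whether the samples of a group were separate cultures or clones, is not stated in the labels, so p-values cover only the spread seen among these arrays, part or all of which can be technical. Since RNA was taken from whole cultures, fewer contractile cells and less RNA per cell cannot be told apart.

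Levels are log2 signals. Each difference is the Daxx mean less the vector mean, with its standard error (SE). A gene was called when the adjusted p of limma (Benjamini-Hochberg over all 19938 genes) was below 0.05. The Daxx probe set did not separate the conditions: it averaged 7.35 ± 0.096 in Daxx arrays and 7.15 ± 0.22 in vector arrays (SD, n = 4 each), with an exact two-sided permutation p of 0.143 (0.0286 is the smallest possible), so the samples are named by their labels alone. Vector replicate 2 stood apart. Its interquartile range over genes was 2.79, against 3.31 to 3.46 in the other 7 arrays, and it read weak probe sets higher and mid-range probe sets lower than the other vector arrays. Results are therefore also given on 7 arrays, without it.

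The promoters of 8 of the 10 genes were matched to RefSeq sequences (GRCm38.p6), and those of Acta2, Cnn2 and Myl9 are shown because they hold the CArG box of Srf or a close form of it. Each is the run of 250 bases before the start of transcription, read along the gene. Capitals mark the matches.
Acta2, chr19:34255374-34255623, minus strand: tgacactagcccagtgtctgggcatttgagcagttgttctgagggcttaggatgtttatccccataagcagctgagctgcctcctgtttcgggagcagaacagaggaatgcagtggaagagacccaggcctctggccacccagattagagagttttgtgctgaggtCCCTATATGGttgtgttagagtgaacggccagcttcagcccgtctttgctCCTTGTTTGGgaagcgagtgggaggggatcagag
Cnn2, chr10:79988350-79988599, plus strand: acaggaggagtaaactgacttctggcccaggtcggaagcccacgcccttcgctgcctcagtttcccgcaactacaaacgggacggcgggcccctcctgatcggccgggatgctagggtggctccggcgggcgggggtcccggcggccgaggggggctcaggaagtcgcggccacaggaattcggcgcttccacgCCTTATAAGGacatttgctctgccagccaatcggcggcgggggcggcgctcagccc
Myl9, chr2:156775214-156775463, plus strand: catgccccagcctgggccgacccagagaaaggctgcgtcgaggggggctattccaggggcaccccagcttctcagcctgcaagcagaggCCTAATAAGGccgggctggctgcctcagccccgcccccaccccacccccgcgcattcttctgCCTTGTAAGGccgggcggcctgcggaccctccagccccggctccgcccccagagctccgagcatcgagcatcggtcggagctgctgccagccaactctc
The CArG box (CC, then 6 bases of A or T, then GG) was found in Cnn2 and Myl9, and in 1.63% of all 32851 windows searched on both strands, from 250 bases before to 50 after a start. A form with 1 G or C among the inner 6 bases, searched after the strict form had been looked at, was found at 2 places in Acta2 and at 1 further place in Myl9, and in 8.5% of all windows. TATAAA was in none of the 8 windows and in 13.6% of all. The windows of Smtn, Mcam, Tpm1, Tpm2 and Cnn1 held none of these letters. Acta2 was called higher in the comparison that follows, and Cnn2 and Myl9 were not. Of the genes without a match, Smtn and Mcam were called higher, and Tpm1, Tpm2 and Cnn1 were not called. Tagln, which was called higher, and Actg2 had no promoter among the sequences. A link between matches and calls was not tested.

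The first comparison asked which of the 10 genes differed between Daxx and vector arrays. Tagln, Mcam, Smtn and Acta2 rose, by 1.31-fold to 1.97-fold, none fell, and 6 were not called. Of all genes, 1.8% were called higher and 2.73% lower. On 7 arrays, without vector replicate 2, 6 of the 10 genes were called higher and none lower, where 5.26% of all genes were called higher and 7.57% lower. The median difference of the 10 genes was 0.17, against -0.028 over all genes, and 0.18 against 0.015 on 7 arrays. Since the 10 genes were chosen with earlier results of these data known, these counts and medians are a description.

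**Figure D1:**
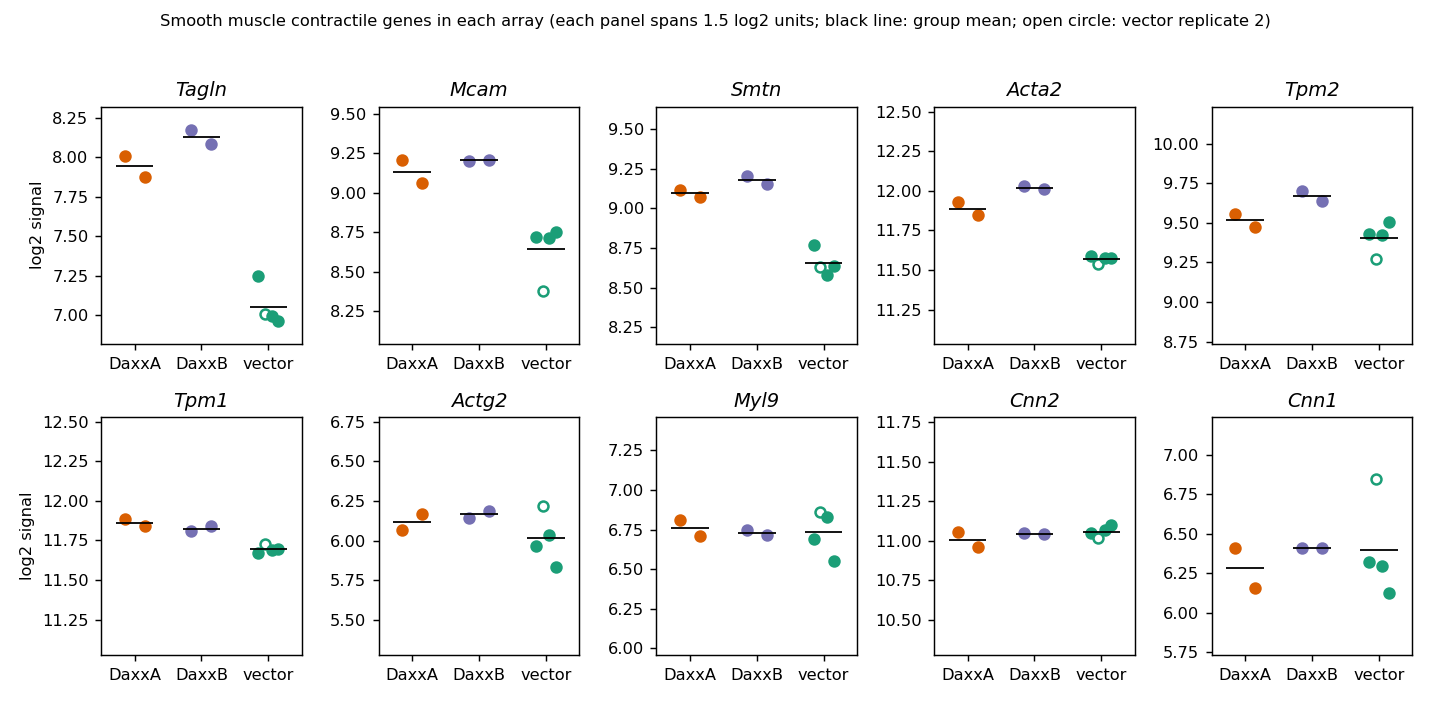
The log2 signal of each of the 10 genes (vertical axis, 1.5 units in every panel) in each array, by group. Points are arrays, black lines are group means, and the open circle is vector replicate 2. All Daxx points of Tagln, Mcam, Smtn, Acta2 and Tpm1 lie above all vector points, and the points of the other 5 genes overlap.

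Among the actins, Acta2, the smooth muscle alpha-actin used to mark contractile fibroblasts, read 11.93 and 11.85 in the DaxxA arrays and 12.03 and 12.01 in the DaxxB arrays, against 11.59, 11.54, 11.58 and 11.58 in the vector arrays. Every Daxx array was above every vector array, and the vector arrays lay within a much narrower range than the Daxx arrays. The difference was 0.38 (SE 0.056, 1.31-fold, 95% interval 1.19 to 1.43, adjusted p = 0.00593). Actg2, the gamma-actin of gut smooth muscle, read 6.06 and 6.17 in DaxxA, 6.14 and 6.19 in DaxxB, and 5.97, 6.22, 6.04 and 5.83 in vector arrays. The groups overlapped only through vector replicate 2, the highest array, and the gene was not called (0.13, SE 0.083, adjusted p = 0.571). Without that array the difference was 0.20 (SE 0.056) and was called (adjusted p = 0.0456).

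In the calponin family the members parted. Tagln, transgelin or SM22-alpha, an early marker of the contractile state, had the strongest difference of the 10 genes, at rank 8 of all 19938 by signed change. It read 8.01 and 7.87 in DaxxA, 8.17 and 8.08 in DaxxB, and 7.25, 7.01, 6.99 and 6.97 in vector arrays. The lowest Daxx array lay 0.63 above the highest vector array, and the difference was 0.98 (SE 0.086, 1.97-fold, 95% interval 1.72 to 2.26, adjusted p = 0.000366). Calponin 1, Cnn1, which binds actin and restrains myosin and marks differentiated smooth muscle, read 6.41 and 6.16 in DaxxA, 6.41 and 6.41 in DaxxB, and 6.32, 6.84, 6.30 and 6.13 in vector arrays. The groups overlapped, and the difference of -0.051 (SE 0.145, adjusted p = 0.879) was 0.098 on 7 arrays (adjusted p = 0.476). Cnn2, a calponin that non-muscle cells also make, read 10.96 to 11.05 in Daxx and 11.02 to 11.10 in vector arrays. Its 95% interval, from 0.905-fold to 1.06-fold, left out changes as large as those of the 4 called genes.

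Smtn, smoothelin, which is bound to stress fibres in contractile smooth muscle, read 9.12 and 9.07 in DaxxA, 9.21 and 9.15 in DaxxB, and 8.77, 8.63, 8.58 and 8.64 in vector arrays. The groups did not overlap, and the difference was 0.48 (SE 0.06, 1.4-fold, adjusted p = 0.00244). Mcam (CD146), an adhesion molecule of vascular smooth muscle, pericytes and endothelium, read 9.21 and 9.06 in DaxxA, 9.20 and 9.21 in DaxxB, and 8.72, 8.38, 8.72 and 8.75 in vector arrays. All Daxx arrays were higher, and vector replicate 2 was lowest. The difference of 0.53 (SE 0.090, 1.44-fold, adjusted p = 0.0128) was 0.44 without that array (SE 0.049, adjusted p = 0.000214). It missed the threshold when DaxxA replicate 1, DaxxB replicate 1 or DaxxB replicate 2 was left out (adjusted p = 0.0528, 0.0502 and 0.0554).

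The tropomyosins, which lie along actin filaments and set their access to myosin, had small differences. Tpm1 read 11.89 and 11.84 in DaxxA, 11.81 and 11.84 in DaxxB, and 11.67, 11.73, 11.69 and 11.69 in vector arrays. Its groups did not overlap, but the difference of 0.15 (SE 0.046, adjusted p = 0.134) was not called on 8 arrays and was called on 7 (0.16, adjusted p = 0.0266). Tpm2 read 9.48 to 9.70 in Daxx and 9.27 to 9.51 in vector arrays, with overlap, and was called in neither (0.19, adjusted p = 0.24, and 0.14, adjusted p = 0.156). Myl9, the regulatory light chain whose phosphorylation starts smooth muscle contraction, read 6.71 to 6.81 in Daxx arrays, inside the vector range of 6.55 to 6.86. Its difference was 0.010 (SE 0.076, 95% interval 0.894-fold to 1.13-fold, adjusted p = 0.957).

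Taking the non-overlap of the 4 Daxx and 4 vector arrays as a description, 5 of the 10 genes had all Daxx values above all vector values, which held for 8.02% of all genes. None had them all below, which held for 6.79%.

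**Figure D2:**
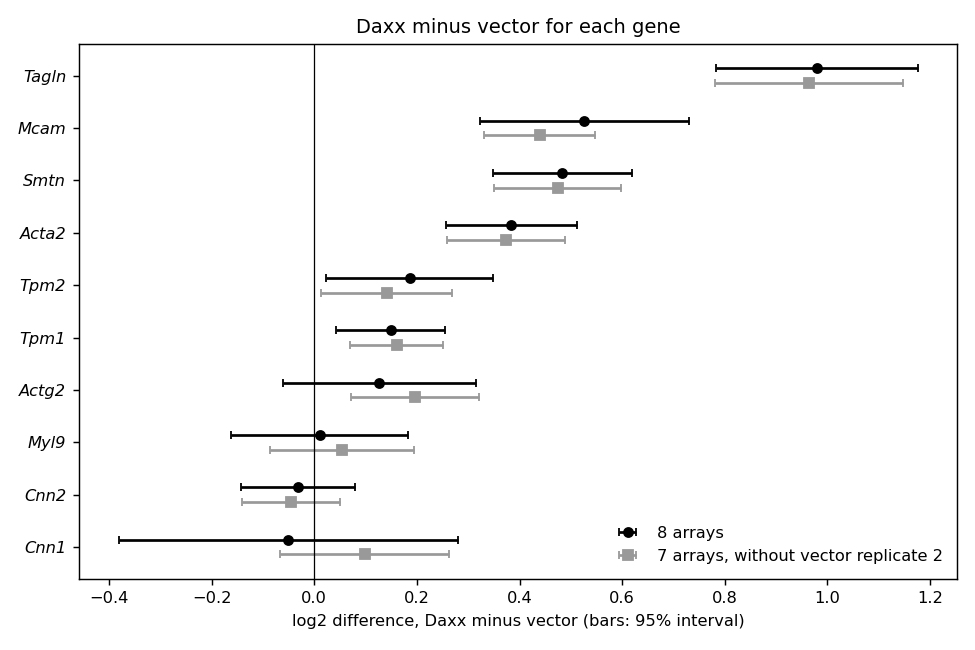
The log2 difference, Daxx minus vector, of each of the 10 genes (horizontal axis) with its 95% interval, on 8 arrays (black) and on 7 arrays without vector replicate 2 (grey). The intervals are not adjusted for the number of genes. Those of Tagln, Mcam, Smtn and Acta2 exclude 0 in both, with differences from 0.38 to 0.98 on 8 arrays. The intervals of Tpm1 and Tpm2 also exclude 0 in both, and that of Actg2 does so on 7 arrays only. Myl9, Cnn2 and Cnn1 lie between -0.051 and 0.010 on 8 arrays.

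The place of vector replicate 2 differed with the signal of the gene. For Cnn1, Actg2 and Myl9 it was the highest vector array, by 0.60, 0.27 and 0.17 over the mean of the other 3. That was the case for 65.5% of the 3295 genes with a mean signal from 6 to 7, with a median of 0.21. For Mcam it was the lowest, by -0.35, as it was for 76.9% of the 2705 genes with a mean from 8 to 9, whose median was -0.22. It was also lowest for Tpm2, by -0.18, and for 77.4% of the 2383 genes with a mean from 9 to 10. For Tpm1 it was highest, by 0.046, as for 21.2% of the 636 genes with a mean from 11 to 12, whose median was -0.052. For Tagln, Smtn, Acta2 and Cnn2 it lay between -0.059 and -0.036 from their mean. The fold changes of the 4 called genes were 1.95 for Tagln, 1.39 for Smtn, 1.36 for Mcam and 1.3 for Acta2 without it.

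**Figure D3:**
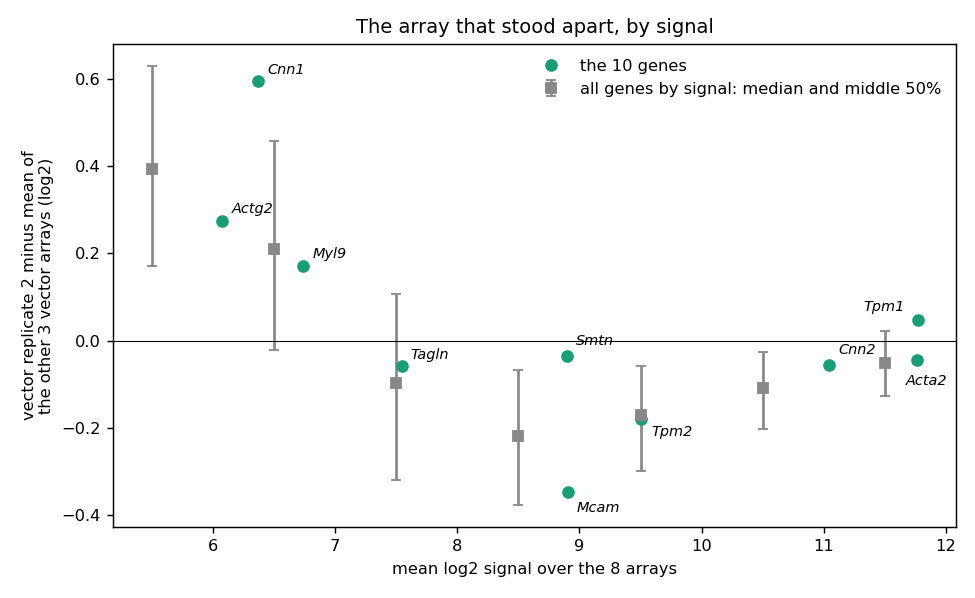
Vector replicate 2 minus the mean of the other 3 vector arrays (vertical axis, log2) against the mean log2 signal over the 8 arrays. Grey squares are medians over all genes in bins of 1 unit, with bars for the middle 50%, and green points are the 10 genes. The medians are above 0 below a signal of 7 and below 0 from there to 12, and Cnn1 and Mcam are the 10 genes' extremes.

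DaxxA and DaxxB were then compared with the same 4 vector arrays, which both comparisons share, in 1 fit of 3 groups. Tagln, Smtn and Acta2 were called higher in each. Tagln was higher by 0.89 in DaxxA (SE 0.096, adjusted p = 0.00501) and by 1.07 in DaxxB (adjusted p = 0.00187). Smtn was higher by 0.44 in DaxxA (SE 0.071, adjusted p = 0.0271) and by 0.53 in DaxxB (adjusted p = 0.0115). Acta2 was higher by 0.32 in DaxxA (SE 0.057, adjusted p = 0.0403) and by 0.45 in DaxxB (adjusted p = 0.00872). Mcam was 0.49 above vector in DaxxA and 0.56 in DaxxB and was called in neither (adjusted p = 0.108 and 0.0528). Of all genes, 0.522% were called higher in DaxxA and 0.767% in DaxxB. Calls depended on single arrays over the whole table as well as in the 10 genes. For DaxxA, 0 of the 10 were called without DaxxA replicate 1 or 2, where 6 and 11 of all genes were called higher, against 104 with all arrays. For DaxxA again, 1 of the 10 was called without DaxxB replicate 1 or 2 (34 of all genes higher in each case) and without vector replicate 3 or 4 (28 and 48). For DaxxB, 1 of the 10 was called without DaxxB replicate 1 or 2, where 11 and 10 of all genes were called higher, against 153 with all arrays. On 7 arrays Mcam was called in both (adjusted p = 0.000675 and 0.000189), Tpm1 in DaxxA (0.0296), and Tpm2 and Actg2 in DaxxB (0.0155 and 0.0352), where 4.46% of all genes were called higher in DaxxA and 10.9% in DaxxB.

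For the difference DaxxA minus DaxxB limma called 0 of the 10 genes, and 0 had an unadjusted p under 0.05. Over all genes it called 0 (0% of 19938), with 846 at an unadjusted p under 0.05. On 7 arrays it called 428 genes (2.15%) and again none of the 10, among which Acta2 and Tpm2 had an unadjusted p under 0.05. The difference was -0.18 for Tagln (95% interval -0.44 to 0.075), -0.13 for Acta2 (-0.29 to 0.020), -0.086 for Smtn (-0.28 to 0.11) and -0.072 for Mcam (-0.38 to 0.24). It was below 0 for 8 of the 10 genes, and for 63.8% of all genes. DaxxA replicate 2 was the lowest Daxx array for 8 of the 10 genes, and for 36.8% of all genes.

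Relatives from the same protein families were examined next, from lists that had been written with earlier results of these data known. Of 13 measured relatives (actins, transgelins, calponin 3, tropomyosins, light chains and smoothelin-like genes) 0 were called by limma on 8 arrays, 2 had an unadjusted p under 0.05, and the median was -0.019. On 7 arrays Myl12b, a light chain of non-muscle myosin, was higher (0.17, adjusted p = 0.0324), the only call among them. Actb, the cytoplasmic beta-actin, read 13.62 to 13.64 in Daxx and 13.61 to 13.65 in vector arrays (difference 0.00065, adjusted p = 0.995). Tagln2 (0.13, adjusted p = 0.301) and Cnn3 (-0.041, adjusted p = 0.715) were not called. Actin and tropomyosin genes are alike in sequence, and the sources used here do not say which probes could bind a relative's RNA.

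**Figure D4:**
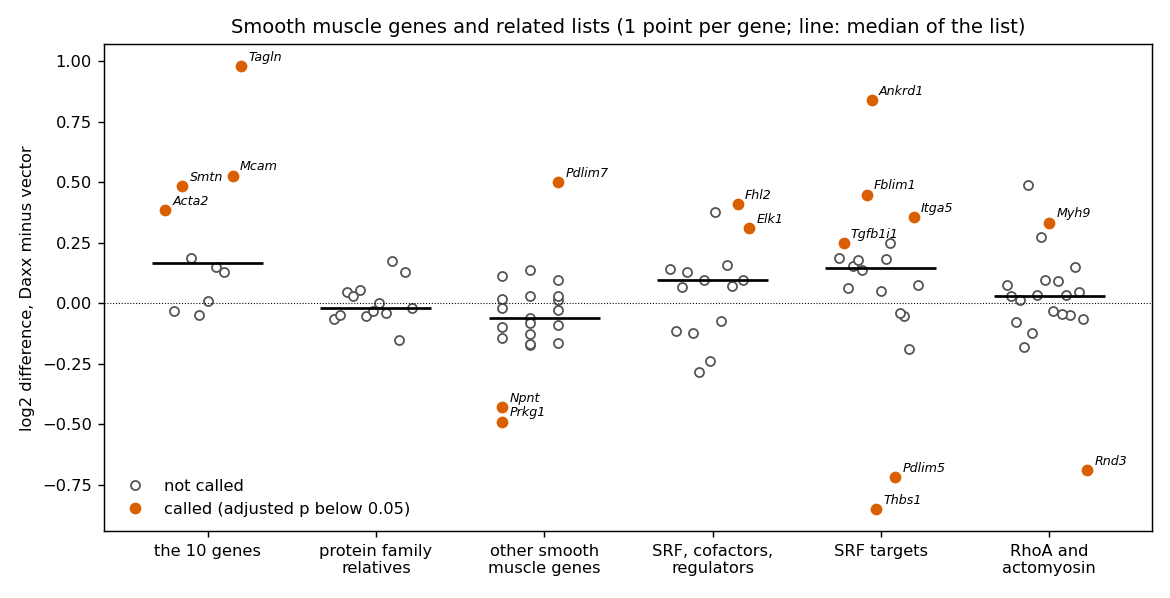
The log2 difference, Daxx minus vector, on 8 arrays (vertical axis) of the 10 genes and of 5 lists of related genes, with 1 point per gene, called genes filled and named, and a line at each list's median. The 10 genes have 4 called points, all above 0, the protein family relatives have none, and the SRF targets have 4 above and 2 below 0.

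Of 21 other genes of the smooth muscle contractile apparatus 1 rose, 2 fell and 18 were not called, with a median of -0.060 (0.023 on 7 arrays, with the same counts). Pdlim7, a scaffold of actin stress fibres, rose 1.41-fold (0.50, SE 0.072, adjusted p = 0.00531), and 1.36-fold on 7 arrays. Prkg1, the cyclic GMP-dependent kinase that relaxes smooth muscle, fell by 0.49 (SE 0.050, adjusted p = 0.000832). Its signal was low, at 5.59 to 5.71 in Daxx and 6.12 to 6.19 in vector arrays. Npnt, the matrix protein nephronectin, fell by 0.43 (adjusted p = 0.0167). Myh11, the smooth muscle myosin heavy chain and a defining gene of mature smooth muscle, read 6.01 to 6.09 in Daxx arrays and 5.99 to 6.36 in vector arrays (-0.10, adjusted p = 0.655). Mylk, the kinase that phosphorylates the light chain, read 7.14 to 7.23 in Daxx and 6.96 to 7.11 in vector arrays, without overlap, and was not called (0.14, adjusted p = 0.253). Cald1, caldesmon, an actin-binding inhibitor of myosin, was not called either (-0.021, adjusted p = 0.859).

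Among Srf, its cofactors and other regulators of the programme, 2 of 15 rose, none fell and 13 were not called, with a median of 0.095. On 7 arrays 4 rose and 2 fell. Srf itself averaged 9.35 ± 0.048 in Daxx arrays and 8.97 ± 0.22 in vector arrays (SD, n = 4 each). The 2 ranges did not overlap, and vector replicate 2 was the lowest at 8.65. The difference of 0.38 (SE 0.103) was not called (adjusted p = 0.0871), and on 7 arrays it was 0.27 and was called (adjusted p = 0.00369). Myocd, the muscle cofactor, was not called (-0.12, adjusted p = 0.704), nor were Mrtfa (0.065, adjusted p = 0.757, and -0.027 on 7 arrays) and Mrtfb (-0.075, adjusted p = 0.533). All Daxx values of Mrtfb lay below all its vector values, at 9.56 to 9.63 against 9.66 to 9.69. Fhl2, a LIM protein that binds Srf, rose 1.33-fold (adjusted p = 0.00303), and Elk1, a ternary complex factor that binds Srf at growth response genes, rose 1.24-fold (adjusted p = 0.0428).

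Targets of Srf in fibroblasts went both ways: of 18, 4 rose, 2 fell and 12 were not called (median 0.15), and on 7 arrays 9 rose and 2 fell. Fblim1, a filamin-binding adhesion protein, rose 1.36-fold (adjusted p = 0.00602), and Itga5, the fibronectin receptor subunit, rose 1.28-fold (adjusted p = 0.00822). The other 2 that rose, Ankrd1 and Tgfb1i1, were named after their values were seen. Ankrd1, a nuclear ankyrin repeat protein also induced by YAP, rose 1.79-fold (adjusted p = 0.0085), and 1.62-fold on 7 arrays. Tgfb1i1, the adhesion protein Hic-5, rose 1.19-fold (adjusted p = 0.0261), and 1.21-fold on 7 arrays. Thbs1, the matrix protein thrombospondin 1, fell by 0.85 (SE 0.055), and Pdlim5, a PDZ and LIM protein of actin filaments, fell by 0.72 (SE 0.061). In the RhoA and actomyosin list 1 of 20 rose, 1 fell and 18 were not called, and on 7 arrays 3 rose and 2 fell. Myh9, a heavy chain of non-muscle myosin, rose 1.26-fold (adjusted p = 0.0493), and 1.2-fold on 7 arrays. Rnd3, which opposes RhoA, fell by 0.69 (SE 0.078, adjusted p = 0.00149), and by 0.75 on 7 arrays.

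Genes that mark cell types were set beside these values. Of 11 fibroblast markers 1 rose, 3 fell and 7 were not called, and on 7 arrays 1 rose, 4 fell and 6 were not called. The list mean was 9.24 to 9.38 in Daxx arrays and 9.57 to 9.63 in vector arrays. Dcn, decorin, was lower in Daxx arrays (-1.47, SE 0.094), and Col1a2, a collagen I chain, was 1.24-fold higher. Pdgfra (-0.82, adjusted p = 0.0119) and Pdgfrb (-0.70, SE 0.084, adjusted p = 0.00202) were also lower in Daxx arrays. Pdgfrb was listed with the fibroblast and not with the pericyte markers. Lum averaged 4.43 in Daxx and 4.71 in vector arrays, beside a median of 4.65 to 5.21 over 1027 genes of olfactory receptors, taken as a gauge of background. Of 6 markers of mature smooth muscle other than the 10 genes, 8 of pericytes and 8 of endothelium 0 were called by limma on 8 or on 7 arrays. At an unadjusted p under 0.05 there were 0 on 8 arrays, and on 7 there was 1 smooth muscle and 1 pericyte marker. The mean of the smooth muscle markers was 5.86 to 5.97 in Daxx arrays and 5.87 to 6.29 in vector arrays, with vector replicate 2 highest. That of pericytes was 6.30 to 6.40 in Daxx and 6.28 to 6.54 in vector arrays, and that of endothelium, which also uses Mcam, 5.62 to 5.70 in Daxx and 5.61 to 5.91 in vector arrays. Of 4 blood and 5 epithelial markers limma called 0, and 0 had an unadjusted p under 0.05, on 8 or on 7 arrays. Of 9 markers of striated muscle Tnnt2, cardiac troponin T, was 1.42-fold higher (adjusted p = 0.0196) and 8 were not called. The part of the fibroblast markers' difference in the results was not tested.

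The genes whose pattern over the 8 arrays was most like that of the 10 genes' mean were sought among 12458 other genes with a mean signal of at least 6. Predicted genes, Riken clones, olfactory and vomeronasal receptors, small RNAs and symbols of clone or letter-number form had been skipped by name. Each of the 10 was first centred on its own mean. The highest Pearson correlations were those of Lpcat4, a lysophospholipid acyltransferase (r = 0.991), Zfpm1, the GATA cofactor FOG-1 (0.988), Ccbe1, a secreted protein of lymphatic growth (0.985), Syne1, a nuclear envelope protein that links to actin (0.985), and Fosl1, an AP-1 subunit (0.984). They describe 8 arrays in 2 conditions, so that a gene that differs evenly between the conditions scores highly. On 7 arrays Zfpm1, Lpcat4 and Ccbe1 were again among the first 5, a repeat added after the 8-array list had been seen.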

How the data were processed

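Total RNA of 8 samples was amplified, end-labelled with biotin and read on Affymetrix microarrays, per the labels. The authors deposited log2 values per probe set, for which the submitters' processing notes name RMA and Affymetrix Expression Console. RMA subtracts background, quantile-normalizes the arrays and summarises each probe set, which compresses differences near background. Software versions and build were not given in the sources used here. Of 35556 probe sets, 21789 had 1 gene symbol, 1621 several and 12146 none listed, by the platform annotation. The probe set with the highest mean stood for its gene (19938 genes, of which 19856 were matched by gene number to the GRCm38.p6 table). Groups were compared with limma 3.58.1 in R 4.3.3 (lmFit, eBayes), with 2 conditions or 3 groups over all 8 arrays. Only the fit with 2 conditions was run on simulated data. These held no array that stood apart and no difference between DaxxA and DaxxB, so they do not cover such features. The alternatives left out each array in turn, or changed normalization, centring, filter, probe set rule, variance model, array weights and replicate block. The number of arrays limits the precision. The 10 genes and all lists, of which 148 of 152 entries were matched, were chosen with earlier results of these data known. Named genes are the 10, up to 2 called genes in each direction per list by adjusted p, and the 5 most correlated genes. Some regulators and actin- and myosin-related genes were fixed by name. Ankrd1, Tgfb1i1, Myl12b, Tagln2, Cnn3, Lum and Pdgfra were named outside this rule. List entries without a match were not analysed here. Promoters are from RefSeq (GRCm38.p6).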

Additional observations from a re-analysis of the deposited data

Results flagged for a closer look

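The 10 genes in 2 conditions gave 20 groups of 4 arrays. In 5 of them the highest or lowest array lay far from the other 3 by Dixon's test at its 95% level. Chance gives this in about 1 of 20 groups only where the 4 arrays vary alike. That need not hold here, since the Daxx groups pool DaxxA and DaxxB, and vector replicate 2 stood apart over all genes. DaxxA replicate 2 was the lowest Daxx array for 36.8% of all genes. How often Dixon's test picks out an array over all genes is not given here, so 5 of 20 is a description. In Daxx arrays DaxxA replicate 2 was low for Cnn1 (6.16), Cnn2 (10.96) and Mcam (9.06). In vector arrays replicate 1 was high for Tagln (7.25), which narrowed the gap to the Daxx arrays, and replicate 2 was low for Mcam (8.38).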

How the results depend on the processing

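Tagln was called under all 15 alternatives, with differences from 0.91 to 1.04. Acta2 and Smtn were called in 14 and Mcam in 11 of 15. The replicate block uses replicate numbers that the labels do not tie to a shared culture or day (correlations of same-numbered deviations 0.0963, 0.133 and 0.0369). Only the vector group has replicates 3 and 4, so the block takes these arrays out of the comparison. The vector side is then replicates 1 and 2 alone, and replicate 2 is the array that stood apart. With this block 1 of the 10 genes was called for Daxx minus vector, Tagln, with Acta2 at adjusted p = 0.131. For DaxxA and for DaxxB against vector 0 were called. Over all genes limma with this block called 162 for Daxx minus vector and 0 for DaxxA and for DaxxB (1951 and 2002 at an unadjusted p under 0.05). Leaving out 1 array gave 3 to 6 called genes for Daxx minus vector, 0 to 5 for DaxxA minus vector and 1 to 6 for DaxxB minus vector. A lone remaining DaxxA or DaxxB array is assumed to vary like the other groups. For DaxxA minus vector, centring on the median gave 1, array weights 5 and only the 2 groups compared 1, beside 46, 1168 and 34 of all genes called higher (104 as reported). For DaxxB minus vector, cyclic loess gave 5 and array weights 7, beside 383 and 2302 of all genes called higher (153 as reported). DaxxA minus DaxxB gave 0 in every alternative run, also where all-gene calls numbered 362 (only these 2 groups) or 485 (array weights). Signs turned for 2 genes that were never called: Cnn1 ran from -0.14 to 0.098 with single arrays left out and was 0.079 with array weights, and Myl9 ran from -0.050 to 0.053 and was -0.031 with the replicate block. Tpm1 was called in 3 alternatives, and Tpm2 and Actg2 in 1 each. Over all genes the calls for Daxx minus vector ran from 162 (replicate block) to 3231 (array weights), beside 902, and from 446 to 2558 with single arrays left out. The cause of these changes was not tested. Low signals, as of Cnn1, Actg2 and Myl9, limit what can be seen there.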
